A study of Homo sapiens with 6 samples.

Results

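Chondroitin sulphate is a long, unbranched sugar chain of alternating glucuronic acid and N-acetylgalactosamine (GalNAc) that is built in the Golgi on proteoglycan core proteins. The genes described here are the enzymes that start, lengthen and sulphate that chain. They are the initiating GalNAc-transferases CSGALNACT1 and CSGALNACT2, the polymerase subunits CHSY1, CHSY3 and CHPF, the GalNAc 6-O-sulphotransferases CHST3 and CHST7, the GalNAc 4-O-sulphotransferases CHST11 and CHST12, and CHST15. They were taken by name, through the RefSeq accession inside each probe set identifier: all 10 genes had a probe set, 11 in all because CHSY3 had 2, out of 927 named genes and 1259 probe sets on the array.

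The arrays came from HCT116, a human colorectal cancer line with microsatellite instability, in which a gene can be switched on with doxycycline (DOX). By the sample titles that gene was wild-type ACVR2, which encodes a type II activin receptor often lost in such tumours, although the source field names TGFBR2 and AIM2 beside it. There were 3 arrays of cells given DOX and activin A (+DOX) and 3 of cells given activin A alone (-DOX). Activin A, the ligand of that receptor, was thus in all 6 samples, and the inducible construct too. The labels give no dose, no time of induction, no number of clones and no statement that replicates were separate cultures, so the spread behind the p-values may be technical. No sample received DOX without the construct, so the drug and the receptor cannot be told apart.

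In the synthesis of chondroitin sulphate, CSGALNACT1 and CSGALNACT2 add the GalNAc that commits a linker to chondroitin rather than heparan sulphate. CHSY1, CHSY3 and CHPF then lengthen the chain, and CHPF is active mainly as a partner of the synthases. CHST11 and CHST12 sulphate GalNAc at the 4-O position and CHST3 and CHST7 at the 6-O position, so the balance of the 2 pairs bears on the pattern of the chain. CHST15 adds a 6-O-sulphate to GalNAc that already carries the 4-O one and so makes the disulphated E unit. In the colon, as in other tissues, these chains bind growth factors and matrix proteins at the cell surface.

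The CHST3 and CHST11 genes gave the only non-overlapping groups among these enzymes, in opposite directions, and the 250 bases before their annotated starts are shown for that reason. Sequences are from RefSeq (GRCh38.p14), 5′ to 3′ on the gene's own strand, and 9 of the 10 genes were matched. CHST3 has 3 starts in the table and the one farthest upstream was taken. Capitals mark the core SMAD-binding motif CAGAC (or GTCTG on the other strand) and the GC box GGGCGG (or CCGCCC), which do not overlap here. SMAD proteins carry the activin signal to DNA, and GC boxes bind SP-family factors.
CHST3, chr10:71964145-71964394, plus strand: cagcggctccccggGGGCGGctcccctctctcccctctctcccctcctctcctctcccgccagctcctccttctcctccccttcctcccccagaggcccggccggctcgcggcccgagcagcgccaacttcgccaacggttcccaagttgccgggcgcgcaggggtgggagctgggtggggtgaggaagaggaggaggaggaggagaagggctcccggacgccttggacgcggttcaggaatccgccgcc
CHST11, chr12:104456698-104456947, plus strand: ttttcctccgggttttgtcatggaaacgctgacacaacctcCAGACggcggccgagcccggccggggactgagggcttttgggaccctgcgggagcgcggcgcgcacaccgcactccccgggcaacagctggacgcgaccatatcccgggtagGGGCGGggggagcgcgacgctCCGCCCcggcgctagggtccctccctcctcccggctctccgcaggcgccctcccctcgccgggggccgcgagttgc
The CHST3 window held 0 SMAD cores and 1 GC box, and the CHST11 window held 1 SMAD core and 2 GC boxes. Among the 9 matched genes, 4 windows held a SMAD core (CHSY1, CHST7, CHST11 and CHST15) and all 9 held a GC box. Of all 35116 annotated windows of this length, 38% held a SMAD core and 42.6% a GC box. These are letters in a window and not measured binding.

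ACVR2A, meant to be induced by DOX, showed no higher value on the +DOX arrays. It read 8.15, 8.02 and 8.08 on the +DOX arrays and 8.25, 8.07 and 8.70 on the -DOX arrays (log2, replicates 1, 2 and 3), a difference of -0.26 (SE 0.16; limma, adjusted p = 0.71). Whether its probes lie in the introduced sequence is not known, so the arrays are named by their labels. Replicate 3 without DOX stood apart: its correlations with the other arrays over all probe sets were 0.982 to 0.991, against 0.995 to 0.999 among the others. Results are therefore also given without it, and the ACVR2A difference was then -0.08. Over all probe sets the median SD was 0.0457 on +DOX arrays and 0.0902 on -DOX arrays. Of 14 colon epithelial markers 4 had a probe set (MUC1, MUC2, MUC13 and MST1R), and their mean log2 value was 7.87 to 7.92 on +DOX arrays and 8.01 to 8.07 on -DOX arrays, with the widest difference, -0.32, for MST1R. The groups did not overlap, with lower values on +DOX arrays, for 3 of the 4, as for 8.26% of all probe sets. The gap between the nearest values was 0.21 for MST1R, but only 0.01 for MUC1 and 0.01 for MUC13. Of 18 markers of blood, endothelial, stromal and nerve cells 6 had a probe set, with a mean of 6.63 to 6.65 on +DOX arrays and 6.64 to 6.67 on -DOX arrays. Their part in the results below was not tested.

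No chondroitin enzyme passed the test. With limma, 0 of the 11 probe sets had an adjusted p under 0.05, as had 0 of 1259 on the whole array (0%). At an unadjusted p under 0.05 there were 2 of the 11, CHST3 lower and CHST11 higher with DOX, against 98 of 1259 on the array (7.78%; 3.26% higher and 4.53% lower with DOX). The groups did not overlap for the same 2 probe sets, 18.2% of the 11, where 15.8% of all probe sets had non-overlapping groups (7.55% higher and 8.26% lower with DOX). That share is near the background. Of the 11, 5 had higher and 6 lower values with DOX, with a median of -0.01, beside -0.0081 over all probe sets. Taken without sign, the median difference was 0.152 for the 11 and 0.058 over all probe sets. The part of the spread between arrays in that size was not tested. The values are log2 expression after RMA, so a difference of 1 is a doubling, and levels of different probe sets cannot be set against each other because their probes bind with different strength.

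**Figure D1:**
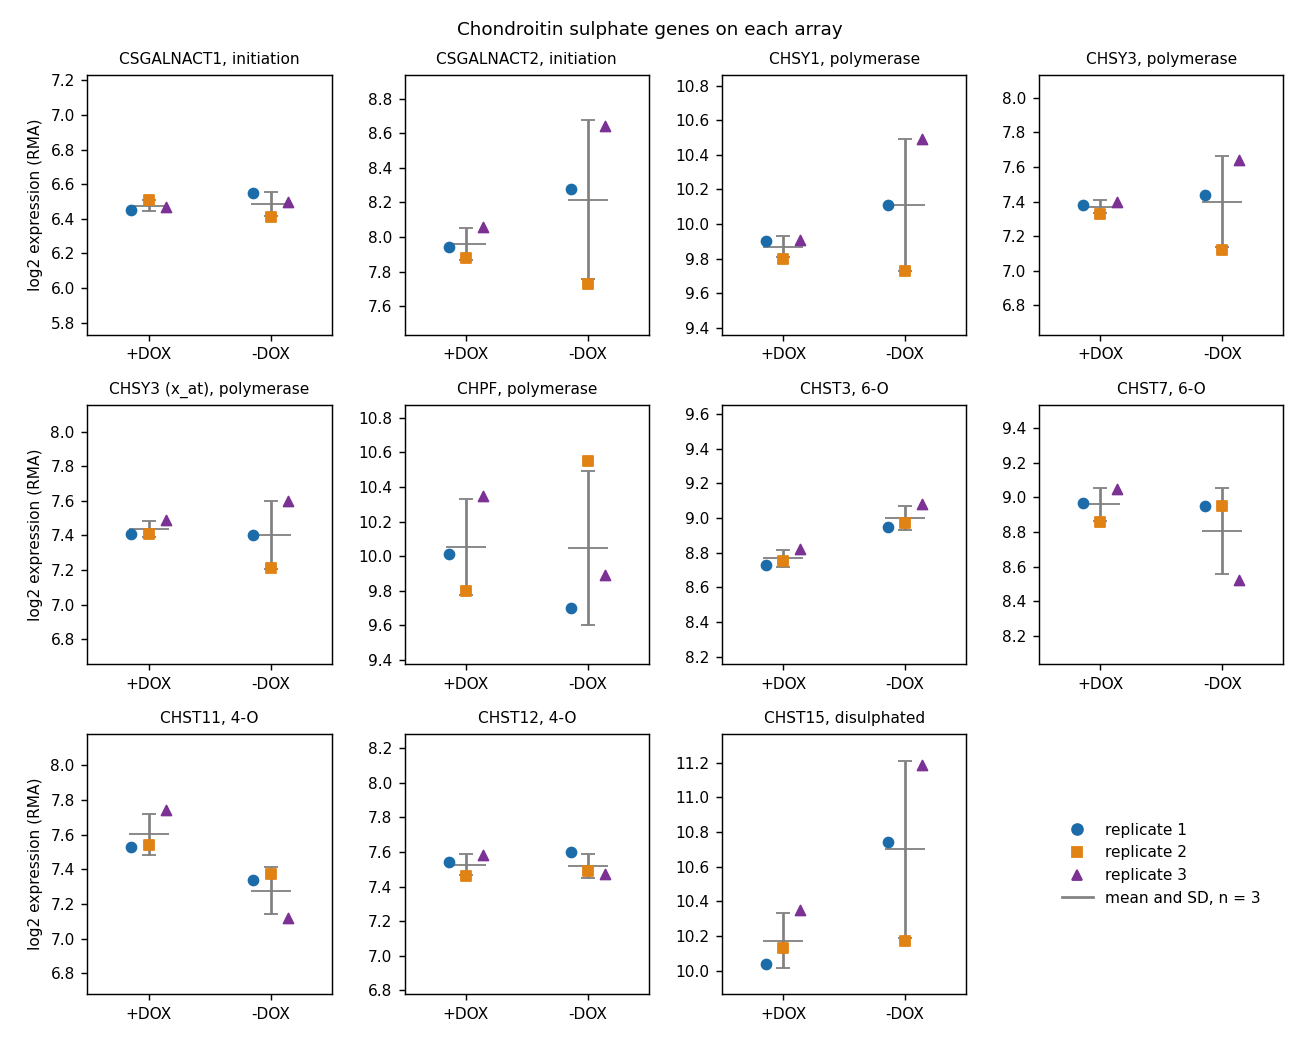
Log2 expression (y axis, RMA values, each panel spanning 1.5 log2 units) of each chondroitin probe set on the 3 +DOX and 3 -DOX arrays (x axis), with points by replicate and grey bars for the mean and SD. Only CHST3 and CHST11 show groups that do not overlap, and the -DOX points of CHST15, CSGALNACT2 and CHPF spread most, with replicate 3 at the top for the first pair and replicate 2 for CHPF.

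Among the 6-O-sulphotransferases, CHST3 had lower values with DOX. This enzyme makes 6-O-sulphated chondroitin, and its loss in people causes a skeletal dysplasia. It read 8.73, 8.75 and 8.82 on the +DOX arrays, against 8.95, 8.97 and 9.08 on the -DOX arrays. Every +DOX array was below every -DOX array, with a gap of 0.13 between the nearest values. The mean was 8.76 ± 0.05 with DOX and 9.00 ± 0.07 without (SD, n = 3 each), a difference of -0.24 (SE 0.05, 95% confidence interval -0.36 to -0.11), or 1.18-fold higher in -DOX cells. In RNA from whole cultures, fewer expressing cells and less RNA per cell cannot be told apart. It did not pass over all probe sets (limma, adjusted p = 0.474), and the exact permutation test, two-sided, gave 0.1, the smallest p that 3 arrays against 3 can give. Without the array that stood apart the difference was -0.20.

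CHST7, the other 6-O-sulphotransferase of the pair, showed no such separation. It read 8.97, 8.86 and 9.05 on the +DOX arrays, against 8.95, 8.95 and 8.52 on the -DOX arrays. The groups overlapped, and 1 array, replicate 3 without DOX, lay below all the others. The difference was 0.15 (SE 0.13, 95% confidence interval -0.18 to 0.48; limma, adjusted p = 0.73), and 0.01 without that array.

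Among the 4-O-sulphotransferases, CHST11 had higher values with DOX. It is the main chondroitin 4-O-sulphotransferase of mouse cartilage. It read 7.53, 7.54 and 7.74 on the +DOX arrays, against 7.34, 7.37 and 7.12 on the -DOX arrays. All +DOX values were above all -DOX values, by 0.15 at the nearest. The mean was 7.60 ± 0.12 with DOX and 7.28 ± 0.14 without (SD, n = 3 each), a difference of 0.32 (SE 0.09, 95% confidence interval 0.09 to 0.56) or 1.25-fold. It too did not pass (limma, adjusted p = 0.477; exact permutation p = 0.1). Without replicate 3 of the -DOX cells the difference was 0.25.

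CHST12, which acts on the same position of chondroitin, showed the narrowest interval of the sulphotransferases apart from CHST3. It read 7.54, 7.46 and 7.58 on the +DOX arrays, against 7.60, 7.49 and 7.47 on the -DOX arrays. The groups overlapped. The difference was 0.01 (SE 0.05; limma, adjusted p = 0.984), with a 95% confidence interval of -0.13 to 0.14, which as a ratio of +DOX to -DOX runs from 0.916 to 1.10.

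Set side by side, the 4-O pair was higher relative to the 6-O pair on the +DOX arrays, and CHST3 and CHST11 made most of that shift. For each array the mean log2 value of CHST11 and CHST12 less that of CHST3 and CHST7 was taken and centred on its mean over the 6 arrays. It was 0.09, 0.10 and 0.13 on the +DOX arrays, against -0.08, -0.13 and -0.10 on the -DOX arrays. The groups did not overlap, and the mean was 0.10 ± 0.02 with DOX and -0.10 ± 0.03 without (SD, n = 3 each). The shift of the 4-O pair over the 6-O pair was thus 0.21 log2 units with DOX, made of 0.17 for the 4-O mean and -0.04 for the 6-O mean. It is a description with no test, because both genes that carry it were known from these data when the pairs were chosen. Without replicate 3 of the -DOX cells the shift was again 0.21, but its parts changed. CHST11 was then at 0.25, CHST12 at -0.02, CHST3 at -0.20 and CHST7 at 0.01. The split between the 4-O and the 6-O mean thus depended on that array.

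The shift was not shared by all 4 pairings of a 4-O with a 6-O enzyme. CHST11 less CHST3 shifted by 0.56 and CHST12 less CHST3 by 0.24, both with groups that did not overlap. CHST11 less CHST7 shifted by 0.17 and CHST12 less CHST7 by -0.15, both with overlapping groups. Over all 6 arrays the pairings that included CHST3 were thus the ones whose groups were apart. Centred on its mean over the 6 arrays, CHST11 less CHST7 read 0.00, 0.12 and 0.14 on the +DOX arrays. It read -0.16, -0.14 and 0.04 on the -DOX arrays, and only replicate 3 there reached the +DOX values. The overlap for CHST11 less CHST7 thus depended on that array.

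**Figure D2:**
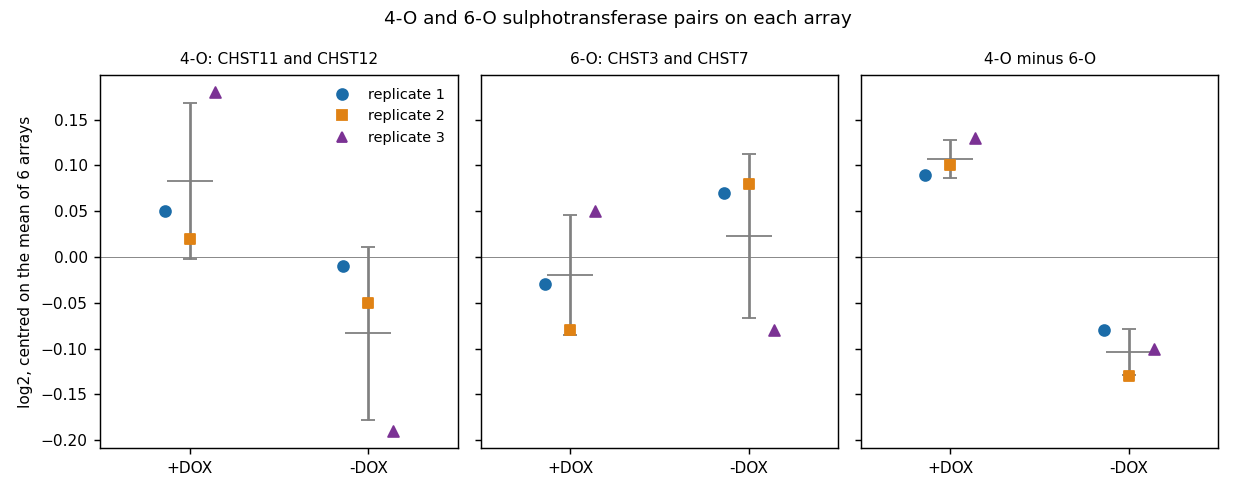
Mean log2 value of the 4-O pair, of the 6-O pair and of their difference (y axis, centred on the mean of 6 arrays) on +DOX and -DOX arrays (x axis), with points by replicate and grey bars for the mean and SD. In the right panel the +DOX points lie between 0.09 and 0.13 and the -DOX points between -0.13 and -0.08, while the 6-O pair overlaps in the middle panel.

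CHST15, the enzyme of the disulphated E unit, had the widest difference and one of the widest spreads. It read 10.04, 10.13 and 10.35 on the +DOX arrays, against 10.74, 10.17 and 11.19 on the -DOX arrays. The groups overlapped through replicate 2 without DOX, which lay among the +DOX arrays, while replicates 1 and 3 lay above them. The mean was 10.17 ± 0.16 with DOX and 10.70 ± 0.51 without (SD, n = 3 each), a difference of -0.53 (SE 0.26, 95% confidence interval -1.19 to 0.13; limma, adjusted p = 0.682). Its within-group SD of 0.381 was larger than that of 96.7% of all probe sets. Without replicate 3 of the -DOX cells the difference was -0.28, and without replicate 2 it was -0.80.

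The initiating enzymes showed a similar spread for one gene and little for the other. CSGALNACT2 read 7.94, 7.88 and 8.06 on the +DOX arrays, against 8.28, 7.73 and 8.64 on the -DOX arrays. The +DOX values lay inside the -DOX range. The difference was -0.25 (SE 0.23, 95% confidence interval -0.83 to 0.32; limma, adjusted p = 0.73). It was -0.04 without replicate 3 of the -DOX cells and -0.50 without replicate 2.

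CSGALNACT1 read 6.45, 6.51 and 6.47 on the +DOX arrays, against 6.55, 6.41 and 6.50 on the -DOX arrays. It lay under the lower quartile of every array (6.85 to 6.89), where the share of background is unknown, and the groups overlapped. The difference was -0.01 (SE 0.05, 95% confidence interval -0.13 to 0.11; limma, adjusted p = 0.953).

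The polymerase subunits also had overlapping groups. CHSY1, a synthase with both glucuronic acid and GalNAc transferase activity, read 9.90, 9.80 and 9.91 on the +DOX arrays, against 10.11, 9.73 and 10.49 on the -DOX arrays. Its difference was -0.24 (SE 0.19, 95% confidence interval -0.71 to 0.24; limma, adjusted p = 0.73), the same size as that of CHST3 but with a standard error of 0.19 where CHST3 had 0.05. Without replicate 3 of the -DOX cells it was -0.05, and without replicate 2 it was -0.43. The -DOX arrays spread on both sides of the +DOX arrays.

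CHSY3, a related synthase, had 2 probe sets built on the same transcript, one of them of the Affymetrix class (x_at) whose probes may bind other transcripts. The first read 7.38, 7.33 and 7.40 on the +DOX arrays, against 7.44, 7.12 and 7.64 on the -DOX arrays. The x_at one read 7.41, 7.41 and 7.49 on the +DOX arrays, against 7.40, 7.21 and 7.60 on the -DOX arrays. Both had the same order of arrays at the extremes, lowest in replicate 2 and highest in replicate 3 without DOX. Their differences were -0.03 (SE 0.13) and 0.04 (SE 0.10), opposite in sign and within their errors, and 0.09 and 0.14 without replicate 3 of the -DOX cells. Without replicate 2 of those cells they were -0.18 and -0.06.

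CHPF, the partner that the synthases need for efficient chain growth, read 10.01, 9.80 and 10.35 on the +DOX arrays, against 9.70, 10.55 and 9.89 on the -DOX arrays. Its arrays ran in another order from those of CHSY1: CHPF was highest in replicate 2 without DOX, where CHSY1 was lowest. The difference was 0.01 (SE 0.26; limma, adjusted p = 0.994), and the wide interval of -0.63 to 0.65 would allow a ratio of +DOX to -DOX from 0.644 to 1.57. Leaving out replicate 3 of the -DOX cells gave -0.07 and leaving out replicate 2 gave 0.26.

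**Figure D3:**
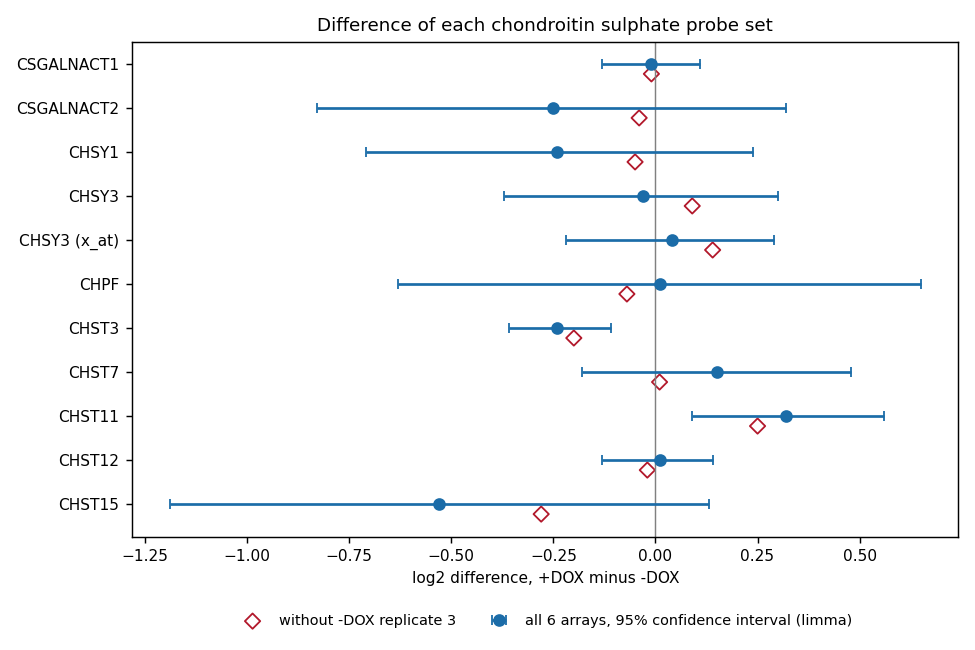
Log2 difference of +DOX minus -DOX (x axis) for each chondroitin probe set (y axis), with blue points and bars for the limma estimate and its 95% confidence interval over 6 arrays and open diamonds for the estimate without replicate 3 of the -DOX cells. The intervals of CHST3 (-0.36 to -0.11) and CHST11 (0.09 to 0.56) do not reach 0 before adjustment for the number of probe sets, and the diamonds of CSGALNACT2, CHSY1, CHST7 and CHST15 lie well towards 0 from their points.

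For several of these enzymes the arrays without DOX ranged over more than the difference between the groups. Relative to the mean of the +DOX arrays, replicates 1, 2 and 3 without DOX were at 0.57, 0.00 and 1.02 for CHST15. They were at 0.32, -0.23 and 0.68 for CSGALNACT2. They were at 0.24, -0.15 and 0.62 for CHSY1. In all 3 genes replicate 3 was highest, replicate 1 next and replicate 2 lowest. Both CHSY3 probe sets had the same order (0.07, -0.25 and 0.28 for the first, and -0.04, -0.23 and 0.16 for the x_at one).

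Over the 11 probe sets, replicate 3 without DOX held the highest of the 6 values in 6 and the lowest in 2. Over all probe sets it held the highest in 26% and the lowest in 35.6%. Replicate 2 without DOX held the lowest in 5 of the 11, and in 16.8% of all. Among the +DOX arrays replicate 3 was the highest of its group in 10 of the 11, all but CSGALNACT1, and in 45% of all probe sets. The within-group SD was larger than that of 96.3% of all probe sets for CHPF, 93.3% for CSGALNACT2 and 89.0% for CHSY1, and than that of 38.4% for CHST3 and 42.9% for CHST12. The part of the arrays' quality in this spread was not tested.

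**Figure D4:**
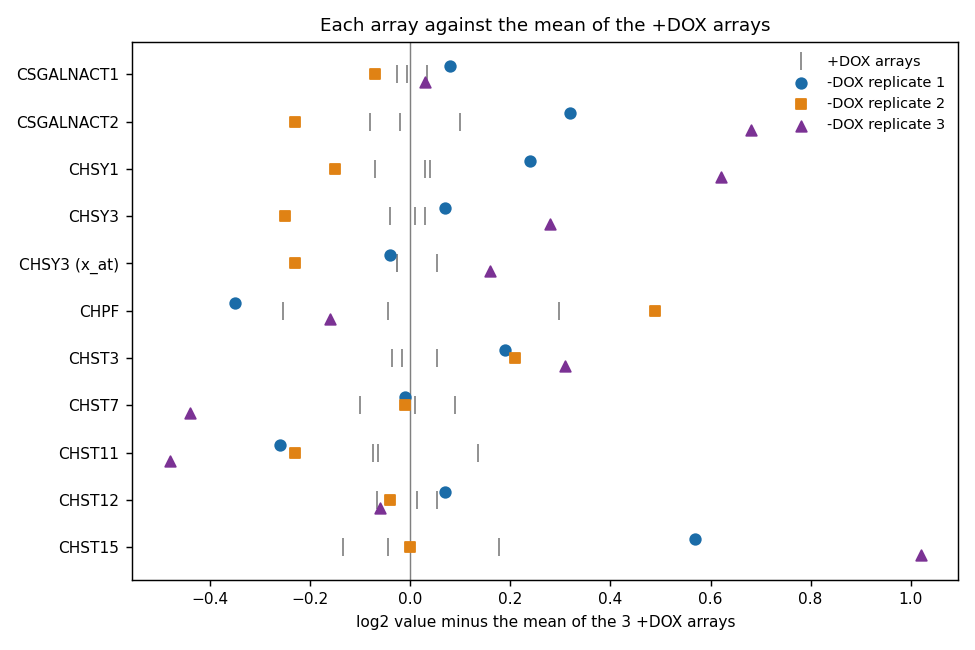
Log2 value of each array less the mean of the 3 +DOX arrays (x axis) for each chondroitin probe set (y axis), with grey ticks for +DOX arrays and coloured symbols for the -DOX replicates. Replicate 3 without DOX reaches 1.02 for CHST15 and -0.48 for CHST11. Replicate 2 lies on the other side of 0 from replicate 3 for CSGALNACT1, CSGALNACT2, CHSY1, CHSY3 and CHPF.

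Genes around these enzymes in the pathway did not pass either. The lists were taken by function, with earlier results of these data known, and the probe set with the highest mean stood for a gene. Of 5 measured genes of the linker, the short sugar stem shared with heparan sulphate, 3 had higher and 2 lower values with DOX, 0 of them past the threshold, and their median was 0.01, or -0.06 without replicate 3 of the -DOX cells. The linker galactosyltransferase genes B3GALT6 and B4GALT7 differed by -0.10 (SE 0.08) and 0.05 (SE 0.08), the xylosyltransferase XYLT1 by 0.03 (SE 0.06) and the glucuronosyltransferase B3GAT3 by -0.04 (SE 0.15). None of these genes had groups that stood apart. The XYLT1 probe set is of the x_at class, whose probes may bind other transcripts.

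Of the other chondroitin and dermatan sulphate enzymes 7 were measured, 4 higher and 3 lower with DOX, 0 of them past the threshold, and their median was 0.00, or -0.03 without that array. UST, which sulphates the uronic acid, differed by -0.27 (SE 0.17). Its values were 8.40, 8.19 and 8.45 on the +DOX arrays, against 8.71, 8.26 and 8.88 on the -DOX arrays, the same order of -DOX arrays as for CHST15. CHPF2, a second polymerising factor, differed by 0.18 (SE 0.12), the dermatan 4-O-sulphotransferase CHST14 by -0.08 (SE 0.09) and DSEL, of the epimerase family that turns chondroitin into dermatan, by 0.02 (SE 0.04).

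The heparan sulphate polymerases compete with CSGALNACT1 and CSGALNACT2 for the same linker. All 5 were measured, 1 higher and 4 lower with DOX, 0 of them past the threshold. Their median was -0.12, or -0.01 without replicate 3 of the -DOX cells and -0.27 without replicate 2. EXTL3, which adds the sugar that commits a linker to heparan sulphate, had groups that did not overlap. It read 9.90, 9.79 and 10.02 on the +DOX arrays, against 10.12, 10.09 and 10.08 on the -DOX arrays, a difference of -0.19 (SE 0.07; limma, adjusted p = 0.562). EXT1 and EXT2, which lengthen the chain together, differed by -0.16 (SE 0.12) and -0.12 (SE 0.14), and EXTL1 by 0.06 (SE 0.06).

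In the supply of activated sulphate and sugars 11 of 13 listed genes were measured, 8 higher and 3 lower with DOX, 0 of them past the threshold. Their median was 0.06, or 0.07 without replicate 3 of the -DOX cells and -0.03 without replicate 2. SLC35D1, which carries UDP-glucuronic acid and UDP-GalNAc into the secretory pathway, had groups apart. It read 7.29, 7.24 and 7.26 on the +DOX arrays, against 7.24, 7.18 and 7.08 on the -DOX arrays. The nearest values are equal when rounded, and the difference was 0.10 (SE 0.05; limma, adjusted p = 0.692). SLC35D2, a related transporter, differed by 0.18 (SE 0.15), and UGDH, which makes UDP-glucuronic acid, by -0.20 (SE 0.18).

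Among core proteins that can carry these chains, 18 were measured, 7 higher and 11 lower with DOX, 0 of them past the threshold, and their median was -0.02. SRGN, the proteoglycan of secretory granules, differed by 0.11 (SE 0.03) with groups apart, on a dim probe set (6.54, 6.57 and 6.54 on +DOX arrays, against 6.48, 6.43 and 6.43 on -DOX arrays). SMC3, a cohesin subunit also described as the proteoglycan bamacan, differed by -0.43 (SE 0.25), the matrix proteoglycan BGN by -0.08 (SE 0.05) and the syndecan SDC3 by 0.09 (SE 0.06).

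Of the enzymes that take these chains apart in lysosomes or at the surface 11 were measured, 4 higher and 7 lower with DOX, 0 of them past the threshold. Their median was -0.03, or -0.02 without replicate 3 of the -DOX cells and 0.01 without replicate 2. IDS, the sulphatase of iduronic acid in dermatan and heparan sulphate, read 10.12, 10.12 and 9.92 on the +DOX arrays, against 9.62, 9.86 and 9.44 on the -DOX arrays. The groups did not overlap, and the difference was 0.41 (SE 0.12; limma, adjusted p = 0.477). The IDS probe set is of the x_at class, whose probes may bind other transcripts. IDUA, the iduronidase, differed by -0.22 (SE 0.11) and the hyaluronidase-family gene HYAL3 by 0.13 (SE 0.07).

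Several of these differences were smaller without the array that stood apart, and some were larger. Without replicate 3 of the -DOX cells UST was at -0.14, CHPF2 at 0.06, SLC35D1 at 0.05, SLC35D2 at 0.01, UGDH at -0.01, SMC3 at -0.20, SDC3 at 0.06 and HYAL3 at 0.05. EXT1 was then at -0.08, EXT2 at -0.01, EXTL1 at 0.00 and B4GALT7 at -0.02. Larger in size were B3GALT6 at -0.18, B3GAT3 at -0.17, XYLT1 at 0.05, CHST14 at -0.13 and IDUA at -0.31. EXTL3, SRGN and IDS kept values of -0.20, 0.10 and 0.31.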

How the data were processed

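The authors deposited log2 expression values from single-colour Affymetrix arrays. RMA (background correction, quantile normalization, summary per probe set) is the tool that the submitters' processing notes give, without a version. Detection calls and scanner files were not analysed here. The RefSeq accession in each identifier, version dropped, gave the gene symbol for 1043 of 1259 probe sets (82.8%). Groups came from the sample titles.

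All 1259 probe sets entered one linear model (limma 3.58.1 under R 4.3.3, moderated by eBayes, two-sided, no block), with Benjamini-Hochberg adjustment over all of them and a threshold of 0.05. For single members an exact permutation test of 3 against 3 arrays was added. The fit was tested on simulated data with the same spread in both groups and with changes larger than those of CHST3 and CHST11. That run does not cover the wider spread of the -DOX arrays or differences as small as these. Precision is limited by the number of arrays, and the median 95% interval reached 0.152 log2 units to either side. No pair of arrays was identical.

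Members, lists and the naming rule (every member, up to 4 genes per list by smallest raw p, and ACVR2A) were chosen with earlier results of these data known. Further genes that the rule takes are not reported here. Same-numbered arrays did not deviate together (correlations of -0.147, -0.0428 and -0.157 for replicates 1, 2 and 3). The labels do not say whether the numbers pair the samples. With 3 arrays per group, 1 of them apart from the rest, these correlations cannot settle it. Alternatives were a replicate block, each array left out, array weights, median centring, a further quantile normalization, a filter on dim probe sets, a trended robust eBayes and the mean of a gene's probe sets.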

Additional observations from a re-analysis of the deposited data

How the results depend on the processing

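No chondroitin enzyme and no gene of the surrounding lists passed the threshold under any alternative run, the replicate block and each left-out array included (0 in each, with limma). Over all probe sets the count was 0 with all alternatives except array weights, where it was 1 (adjusted p = 0.0378), a probe set outside these lists; that weighting stopped before full convergence. The replicate block left 0 calls. At an unadjusted p under 0.05, 41 of all probe sets were higher and 57 lower with DOX, against 63 higher and 44 lower after median centring and 61 higher and 51 lower after a further quantile normalization. In all these were 98, against 246 with array weights and between 45 (without replicate 1 of the +DOX cells) and 258 (without replicate 2 of the -DOX cells) when single arrays were left out. The shift of the 4-O over the 6-O pair (0.21) lay between 0.19 and 0.22 when single arrays were left out and was 0.16 after a further quantile normalization; the cause was not tested.

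CHST3 and CHST11 kept their direction under each alternative. CHST3 lay between -0.26 and -0.18, with adjusted p between 0.0753 and 0.903, and CHST11 between 0.24 and 0.37, with adjusted p between 0.151 and 0.903. The near-zero differences changed sign: CSGALNACT1 was at 0.01 after median centring and between -0.05 and 0.02 with single arrays left out, CHST12 at -0.04 with array weights and between -0.02 and 0.05, the CHSY3 probe sets between -0.18 and 0.09 and, for the x_at one, -0.06 and 0.14, and CHPF between -0.17 and 0.26. With single arrays left out, CSGALNACT2 lay between -0.50 and -0.04, CHSY1 between -0.43 and -0.05, CHST15 between -0.80 and -0.28 and CHST7 between 0.01 and 0.22. The list medians then lay between -0.06 and 0.06 for the linker and -0.27 and -0.01 for the heparan sulphate polymerases. They lay between -0.03 and 0.13 for donor supply and -0.07 and 0.01 for degradation. With array weights the linker, heparan polymerase and donor supply medians were -0.07, -0.16 and -0.03. CSGALNACT1 dropped out under the filter on dim probe sets, where no value was had for it. No depth can be given for arrays, and signal over background is unknown for dim probe sets.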
